A study of Mus musculus with 12 samples.

Results

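Follicular B cells are the recirculating mature B cells of the spleen follicle. The genes that encode the proteins of their cytosolic ribosomes were followed in 12 RNA sequencing libraries of such cells, sorted as CD21/35- CD23+ from spleens of male mice. Members were the genes listed in both count tables under a symbol of the form Rpl or Rps plus a number, Rplp0 to Rplp2 or Rpsa, without the S6 kinases (Rps6k) and without pseudogene rows. This gave 82 of the 12837 genes listed at both times, by symbol alone and with no use of their values. They divide into 42 proteins of the large (60S) subunit, 31 of the small (40S) subunit, 3 stalk proteins, 5 paralogs (Rpl7l1, Rpl22l1, Rpl36al, Rps27l and Rps4y2) and Rps19bp1, which matches by name only and encodes a protein that binds ribosomal protein S19. Rpl3l was listed at 4 h only, and Rpl26 was not analysed here. Fau and Gnb2l1 encode ribosome components under other names and were followed beside the members.

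The WT mice were Gpr174+/Y and the KO mice Gpr174-/Y. In the KO allele tdTomato stands in frame in place of the only coding exon. GPR174 is a receptor coupled to the G protein Gs. Each genotype was taken directly after the sort (0 h) and after 4 h in complete RPMI medium with serum and no added stimulus, with 3 libraries in each of the 4 groups. The mice were adults, and the labels give no age for single samples.

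Each cytosolic ribosome is built of ribosomal RNA and many proteins, most of them in equal copy number, and their genes are usually expressed together and at high levels. Their mRNAs start with a C and a run of pyrimidines, the 5′ terminal oligopyrimidine (TOP) motif, through which mTORC1 and the RNA-binding protein LARP1 set how well they are translated. Resting lymphocytes hold few ribosomes and make many more after activation. Ribosomal protein genes are also short and have left many processed pseudogenes in the mouse genome, so that short reads from them often match several places.

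Library totals ran from 6098941 to 11618787 counts. Levels are given as CPM, that is counts per 1000000 counts of the TMM-scaled library. Gpr174, the targeted gene, lay at 149.5 to 169.1 CPM in the 6 WT libraries and at 73.4 to 118.3 CPM in the 6 KO libraries, in the direction of the labels. KO libraries still held reads counted to it, and where in the gene they lie was not measured. The 7 B cell markers listed in both tables summed to 7713 to 8110 CPM in WT and 7252 to 7589 CPM in KO cells at 0 h, and to 5412 to 5646 CPM and 6369 to 6563 CPM at 4 h. The 6 T cell markers summed to 17.6 to 33.4 CPM over all libraries. The 4 macrophage markers listed in both tables went from 48.9 to 59.1 CPM at 0 h to 17.3 to 36.9 CPM at 4 h. Of these, 3 were called lower in each genotype. Adgre1, C1qa and C1qb, which define macrophages, were not among the genes listed in both tables. Of all 7 macrophage markers, 6 were tested between genotypes at 0 h and 3 at 4 h. Some of Adgre1, C1qa and C1qb were thus counted at 0 h and are missing from these sums. Proliferation markers (12 genes) summed to 236.4 to 336.4 CPM in WT and 453.2 to 637.8 CPM in KO cells at 0 h. At 4 h they summed to 210.1 to 257.8 CPM and 247.8 to 385.9 CPM. Of them 5 were called lower in KO culture and 1 in WT culture. Between the genotypes 6 were called at 0 h (Cdk1 lowest, log2 fold change -1.93) and 2 at 4 h, all lower in WT. Of all genes, 0.987% and 10.9% were called there. Of 4 plasma cell markers tested, Sdc1 was called at 0 h (1.64) and Irf4 at 4 h (0.23), both higher in WT. In WT culture 3 of these were called higher and 1 lower, and in KO culture 1 higher and 1 lower. The sums of 2 neutrophil and 2 erythroid markers were highest in KO 0 h replicate 2, at 101.03 and 125.2 CPM. The part of these markers in the results on the members was not tested. In bulk libraries like these, fewer cells of a type and less RNA per cell cannot be told apart.

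The members together took 1.73% to 2.16% of all counts of a library. At 0 h their summed level was 19317 ± 334 CPM in WT and 19464 ± 762 CPM in KO cells. At 4 h it was 18947 ± 2602 CPM in WT and 19162 ± 1558 CPM in KO cells (SD, n = 3). The 4 group means thus lay closer together than the replicates of either 4 h group. Large subunit genes summed to 7352 to 9447 CPM over the 12 libraries and small subunit genes to 7749 to 10228 CPM. The ratio of these sums stayed between 0.913 and 0.949, with an SD of 1.25% of its mean, so the subunits moved together from library to library. For the stalk proteins, which recruit translation factors to the large subunit, the sum ranged from 1213 to 1763 CPM.

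The widest spread was between replicates in culture. WT 4 h replicate 1 held 21696 CPM of member transcripts, replicate 2 held 16523 and replicate 3 held 18624. In the KO 4 h libraries the sums were 17397, 19742 and 20346 CPM. At 0 h, by contrast, the 6 libraries lay between 18690 and 20213 CPM. Over the 56 members with a mean of 200 or more counts a library, 55 were higher in WT 4 h replicate 1 than in replicate 2, by a median of 0.36 on the scale of log2(CPM + 0.5). All 56 were lower in KO 4 h replicate 1 than in replicate 3, with a median of -0.20 for replicate 1 over replicate 3. On the same signed scale (WT 4 h replicate 1 over 2, then KO 4 h replicate 1 over 3), the 6220 other genes with as many counts had medians of 0.017 and 0.018. Among the 934 of them with a median coding transcript length under 1000 bases, close to the length of the members (median 738 bases), the medians were 0.083 and -0.024. The 25 well counted genes of a list of other TOP mRNAs, which encode elongation factors, initiation factors and similar proteins, had medians of 0.29 and -0.12. Mitochondrial ribosomal proteins (44 genes), which serve translation inside mitochondria, had medians of 0.17 and -0.12. Rn45s, the ribosomal RNA precursor row, took 11.2% of counts in WT 4 h replicate 1 and 7.78% and 8.29% in replicates 2 and 3. Its part in the spread of the members was not tested.

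**Figure D1:**
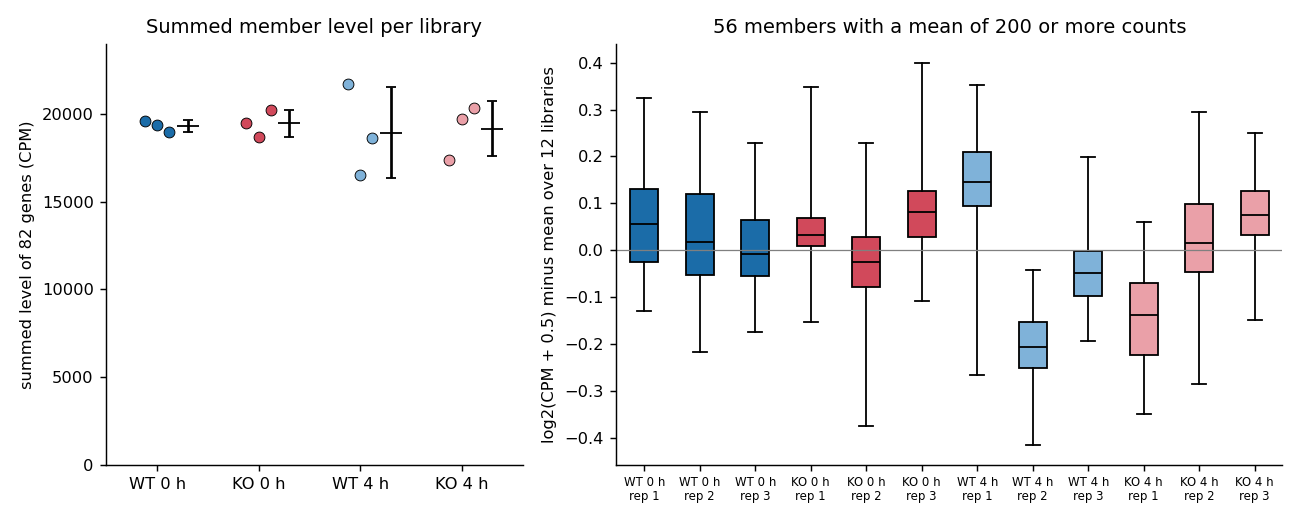
The left panel plots the summed level of the 82 members in CPM (vertical axis from 0) for each library by group, with the group mean and SD beside the points. The right panel shows, for each of the 12 libraries, the 56 members with a mean of 200 or more counts as log2(CPM + 0.5) minus that gene's mean over all libraries (box, quartiles with the median; whiskers, lowest and highest member); WT 4 h replicate 1 lies highest and WT 4 h replicate 2 lowest, 21696 against 16523 CPM in the sums.

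The count of single members ranged over more than 3 orders of magnitude. Rpl4, a large subunit core protein, had 9321 to 17693 counts. Rpl30 had 6 to 13 and Rpl34 3 to 15, although their proteins are part of every large subunit. The 10 most counted members held 51.6% of all member counts, while 26 members had a mean under 200 counts and 9 a mean under 50. Per kb of the annotated mRNA, the 75 subunit and stalk genes with an annotated transcript had a median of 89.7 CPM per kb, with quartiles of 19.3 and 313 CPM per kb and Rpl30 lowest at 1.05.

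How much of each transcript is unique in sequence was therefore measured, since reads that match several places are commonly left uncounted. All windows of 50 bases, the read length, were taken from 1 annotated mRNA per gene (GENCODE vM21, GRCm38). They were looked up in the transcripts of all other genes, pseudogenes included. Among equally ranked coding mRNAs of a gene the longest was taken, with 5179 bases for Rps15a, 3706 for Rps20 and 1856 for Rpl21. This choice enters both the unique share and the CPM per kb, and other mRNAs of these genes were not tried. A median of 48.6% of windows occurred in no other gene, with quartiles of 20.7% and 65.6% and the lowest share, 1.35%, in Rps27. In the 18 members with under 20% unique windows the median level was 35.6 CPM per kb, in the 30 members with 20% to 60% it was 73.3, and in the 27 with 60% or more it was 512.6. Across these 75 genes, which share libraries and are not independent replicates, the unique share and log2 CPM per kb were correlated (Pearson r = 0.494, Spearman rho = 0.4995). The scatter about this relation was wide. Rpl34, Rpl28 and Rpl21, with 62.1%, 52.6% and 73.8% unique windows, were at 1.97, 2.10 and 6.39 CPM per kb, and Rps18, with 13.3%, was at 269.9 CPM per kb. The part of shared sequence in these levels was not tested. In the annotation 26 of the 80 members found there by symbol also overlap another protein-coding or long noncoding gene. Overlaps with pseudogenes and small RNA genes were not counted. Single members are from here on compared between libraries and not with each other.

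**Figure D2:**
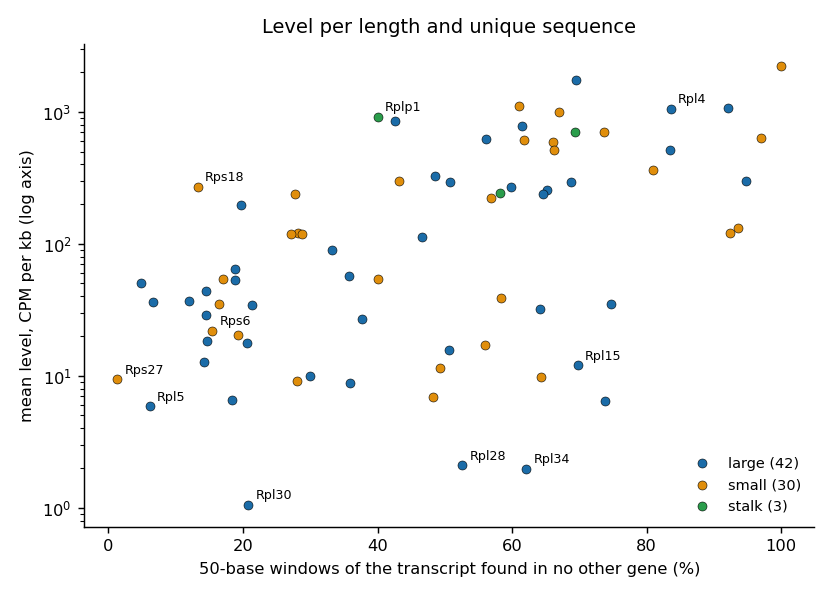
Each point is 1 of 75 ribosomal protein genes, coloured by class. The horizontal axis gives the percentage of 50-base windows of its mRNA found in no other gene and the vertical axis its mean level over 12 libraries in CPM per kb on a log axis, with Rpl30 lowest (1.05); genes with few unique windows lie mostly in the lower part.

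The transcription start of each member was examined for the pyrimidine run of TOP mRNAs, because it is the sequence feature that these genes are known to share. In the RefSeq promoter table (GRCm38.p6), 60 of the 82 members had an annotated start. A run of 8 or more C or T, on the transcribed strand only and reaching within 5 bases of that start, was found in 24 of them (40%). The same rule held for 11.4% of all 27025 genes in the table, for 12% of the genes tested in the 12 libraries and for 10.4% of 67 mitochondrial ribosomal protein genes. A match is a description of the letters at an annotated start, and the starts used in these B cells were not measured. Of the 10 members called in any comparison, 9 had an annotated start and 2 of these had a run, Rpl15 and Rps6. The windows of the 8 ribosomal proteins among them are shown, from 10 bases before the start to 20 bases from it on, 5′ to 3′ on the gene's strand, with a qualifying run in capitals, because these are the genes on which the comparisons turn.
Rpl15 (chr14:18270967-18270996, minus strand): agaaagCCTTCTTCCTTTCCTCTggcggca
Rps6 (chr4:86857348-86857377, minus strand): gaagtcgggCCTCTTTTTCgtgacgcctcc
Rpl12 (chr2:32961702-32961731, plus strand): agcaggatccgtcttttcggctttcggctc
Rpl9 (chr5:65391412-65391441, minus strand): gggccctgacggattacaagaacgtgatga
Rps16 (chr7:28350679-28350708, plus strand): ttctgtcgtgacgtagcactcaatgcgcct
Rps28 (chr17:33824543-33824572, minus strand): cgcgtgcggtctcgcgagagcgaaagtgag
Rpl36al (chr12:69184048-69184077, minus strand): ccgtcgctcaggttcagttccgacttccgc
Rpl10 (chrX:74270806-74270835, plus strand): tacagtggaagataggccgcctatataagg
In Rpl15 the run is 17 bases long and in Rps6 it is 10. In Rpl12 the longest run near the start has 7 bases, below the limit, and it is 4 bases or fewer in the other 5 genes shown.

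The genotype contrast at 0 h asked whether ribosomal protein transcripts differed before culture. Of 81 members tested, 1 was called (edgeR quasi-likelihood test, Benjamini-Hochberg adjusted p under 0.05 over all 11345 genes), where 0.987% of all genes were called. The called gene was Rpl15, which encodes a large subunit protein buried in the ribosomal RNA. Its counts were 409, 289 and 410 in the 3 WT libraries and 125, 127 and 109 in the 3 KO libraries. On the CPM scale these were 46.1, 32.4 and 36.6 in WT and 15.8, 18.8 and 15.0 in KO. All WT libraries lay well above all KO libraries. Rpl15 was 2.31-fold higher in WT (log2 fold change 1.21 ± 0.14, SE; edgeR adjusted p = 0.00034). It stayed called in all 12 alternative fits, with log2 fold changes of 1.06 to 1.31 and adjusted p-values of 4.4e-10 to 0.0044.

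Rpl15 lies on chromosome 14 from 18267823 to 18271391 (minus strand, GRCm38), and 69.8% of its mRNA windows were unique. The remaining windows occurred in 23 other genes. On the opposite strand it overlaps Nkiras1, which encodes an inhibitor of NF-kB signaling, and the strand of the reads was not given. Nkiras1 was at 30.2, 32.8 and 30.7 CPM in WT 0 h and at 25.7, 26.1 and 24.2 CPM in KO 0 h. These libraries also did not overlap, and the log2 fold change was 0.30 ± 0.11 (edgeR adjusted p of 0.234). What reads of the overlapping gene contribute to Rpl15 was not tested.

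The other 80 members at 0 h had log2 fold changes of -0.43 to 0.46, and the median over all 81 was -0.028 (0.00026 over all genes tested). For 66 of the 81 (81.5%) the interval of 2 SE either side lay within ±0.5 on the log2 scale. Of all genes 67.0% did so, with a median SE of 0.117 against 0.075 in the members. At an unadjusted p under 0.05 there were 4 members higher in WT and 5 lower, Rpl15 included. Of all 11345 genes, 770 were higher and 672 lower by this measure. Rps6, the phosphorylated target of S6 kinase, was at 19.5, 16.4 and 16.3 CPM in WT and 23.9, 21.3 and 24.4 in KO. Its WT and KO libraries were apart, but it was not called (log2 fold change -0.43 ± 0.13, adjusted p of 0.155). In 16 members (19.8%) all libraries of 1 genotype lay above all of the other, close to the 18.3% of all genes.

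After 4 h of culture, when many more genes differed between the genotypes, no member did by this test. Of 80 members, 0 were called by edgeR and 0 by DESeq2, where edgeR called 10.9% of all 11123 genes. At an unadjusted p under 0.05, 3 members were higher in WT and 2 lower, against 1271 and 1307 of all genes. The median log2 fold change was -0.016, against 0.0048 over all genes tested. Of the 80 intervals 65 (81.25%) lay within ±0.5, against 63.8% for all genes. Without WT 4 h replicate 1, the library with the most member transcripts, the median was -0.12. The genotypes were fully apart in 5 members (6.25%), against 27.9% of all genes. Closest to a call was Rpl12, whose protein sits at the base of the stalk, with 21.1, 24.2 and 23.6 CPM in WT and 17.1, 16.3 and 19.6 in KO. Its WT libraries all lay above its KO libraries (log2 fold change 0.39 ± 0.12, adjusted p of 0.060). Rpl7l1, a homolog of Rpl7, had a log2 fold change of 0.27 ± 0.09 (adjusted p of 0.061) and Rps14 one of 0.29 ± 0.10 (0.076). With all 4 groups in the fit, these 3 genes were called, all higher in WT. Rpl15, at 21.1, 12.98 and 18.4 CPM in WT and 15.7, 25.3 and 19.7 in KO, overlapped between the genotypes at 4 h (log2 fold change -0.21 ± 0.19, adjusted p of 0.551).

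**Figure D3:**
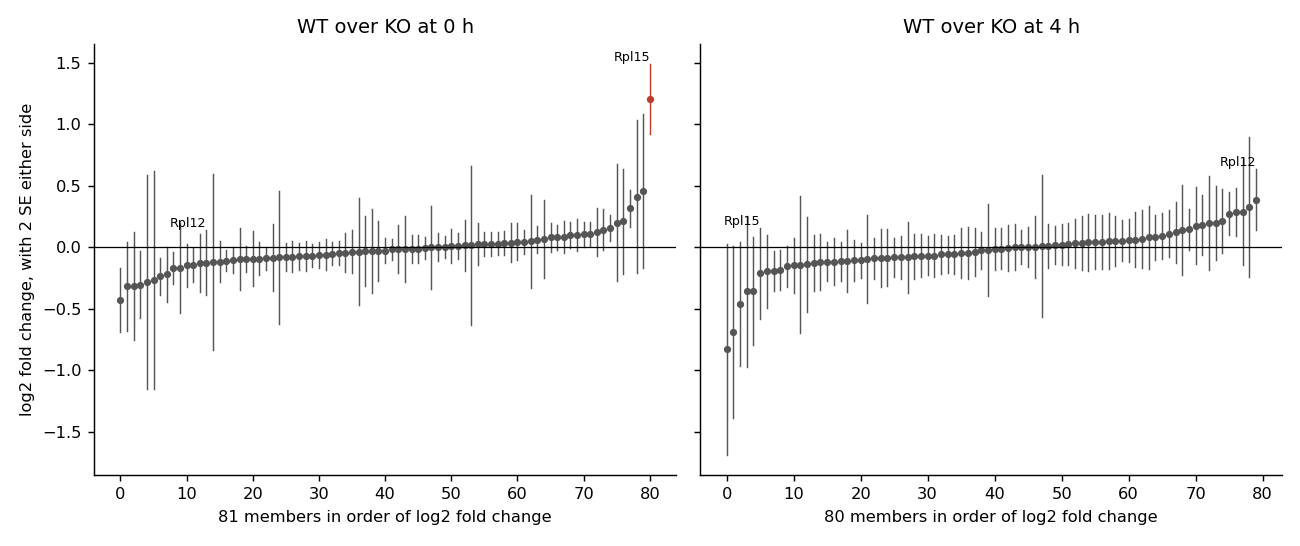
Log2 fold changes of WT over KO (vertical axis) with 2 SE either side for the 81 members tested at 0 h (left) and the 80 tested at 4 h (right), in order of size; a called gene is red. Rpl15 at 0 h (1.21) is the called member, and Rpl12 at 4 h (0.39) ends the other order without a call.

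Culture in WT cells asked what 4 h without stimulus did to the members. Of 81 members 7 were called (8.64%), 2 higher and 5 lower at 4 h, where 33.1% of all 11572 genes were called, 15.1% higher and 18% lower. In this fit the share of members called was below that of all genes, a difference that was not tested. The median log2 fold change was -0.054 (0.0048 over all genes). Libraries of the 2 times did not overlap in 15 members (18.5%), against 40.9% of all genes. The count rested on 1 library. Without WT 4 h replicate 1 there were 24 called members, 2 higher and 22 lower, with a median of -0.14. That fit called 3353 of 11789 genes, so the lower share of members depended on this library. Without WT 4 h replicate 2 there were 8, and the median was 0.012. With library totals in place of TMM scaling, which moved the median of all genes to 0.11, there were 12, of which 9 were higher and 3 lower, and the member median was 0.052.

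Rpl15 fell most, from 32.4 to 46.1 CPM at 0 h to 12.98 to 21.1 CPM at 4 h (log2 fold change -1.13 ± 0.17, adjusted p of 2.8e-05). Cultured WT cells thus overlapped the KO cells of either time, which lay at 15.0 to 25.3 CPM. Rps28, a small subunit protein near the mRNA exit, was at 5.63, 7.17 and 5.45 CPM at 0 h and at 3.07, 3.597 and 2.95 CPM at 4 h (-0.93 ± 0.24, adjusted p of 0.0052). It is a low member of chromosome 17 (33819027 to 33824562) that overlaps Kank3 on the other strand, which lay at 2.24 to 2.82 CPM in these libraries. Rpl9, a large subunit protein with 6.68% unique windows, was at 27.3, 32.6 and 29.2 CPM at 0 h and 21.9, 20.02 and 23.3 CPM at 4 h (-0.44 ± 0.12, adjusted p of 0.0052). These 3 genes had no overlap between the times and stayed called in all 18 alternative fits. Some of these fits left out a KO library and moved the WT median little (-0.053 to -0.054).

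Rpl10, which is added late to the large subunit, fell from 16.6 to 17.9 CPM to 12.02 to 13.9 CPM (-0.40 ± 0.13, adjusted p of 0.026). Rpl36al, a near copy of Rpl36a, fell from 71.9 to 78.4 CPM to 50.8 to 69.4 CPM (-0.31 ± 0.09, adjusted p of 0.0094). Rpl12 rose from 19.3, 17.0 and 16.6 CPM to 21.1, 24.2 and 23.6 CPM (0.39 ± 0.12, adjusted p of 0.017). It overlaps Lrsam1 on the other strand, which was at 8.40 to 11.7 CPM in WT before culture and at 10.9 to 11.1 CPM after it. Rps19bp1, the binding protein that is no part of the ribosome, rose from 14.5 to 16.9 CPM to 20.3 to 21.3 CPM (0.44 ± 0.12, adjusted p of 0.0094). Rps19bp1 stayed called in all 18 alternatives, while Rpl10, Rpl12 and Rpl36al lost their calls in 5, 4 and 2 of them.

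The same comparison in KO cells called 5 of 81 members (6.17%), 0 higher and 5 lower, where 23.3% of all genes were called, 10.3% higher and 13% lower. At an unadjusted p under 0.05, 1 member was higher and 9 were lower, against 1870 and 2095 of all 11572 genes. DESeq2 called 4, all lower. The median was -0.046 (0.0016 over all genes), and it was 0.0087 without KO 4 h replicate 1. Times did not overlap in 14 members (17.3%), against 41.9% of all genes. Rpl9 and Rpl10 were called lower here as in WT, by -0.43 ± 0.11 (adjusted p of 0.0083) and -0.39 ± 0.13 (adjusted p of 0.036). Rpl9 fell from 33.9, 27.7 and 35.1 CPM to 22.8, 24.4 and 24.5 CPM, with no overlap between times. Rps6 fell from 23.9, 21.3 and 24.4 CPM to 15.7, 15.9 and 19.0 CPM, also with no overlap (-0.46 ± 0.13, adjusted p of 0.011). Rps16, of the small subunit head, and Rps14, of its platform, fell by 0.31 and 0.26 on the log2 scale (adjusted p of 0.036 and 0.033).

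These calls depended on which KO libraries were in the fit. Without KO 0 h replicate 1 or KO 4 h replicate 1, only 1 member was called. Without KO 0 h replicate 2, KO 0 h replicate 3 or KO 4 h replicate 2, 2 were called, and 4 without KO 4 h replicate 3. Leaving out a KO library also lowered the calls among all genes, from 2697 to between 1919 and 2219. Library totals gave 3 higher and 2 lower, with a median of all genes at 0.09. Rpl9 lost its call in 1 of 18 alternatives, Rps6 in 3, Rps16 in 5, Rps14 in 6 and Rpl10 in 8, with no change of sign in any of them. Some of the 18 left out a WT library and moved the KO median little (-0.045 to -0.047). With a KO library left out, Rpl10 kept its call only without KO 0 h replicate 3, and Rps14 only without KO 4 h replicate 3. Rps28 in KO, at 5.18, 5.63 and 4.95 CPM before and 4.21, 3.35 and 2.99 CPM after culture, had a log2 fold change of -0.58 ± 0.25 (adjusted p of 0.097).

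**Figure D4:**
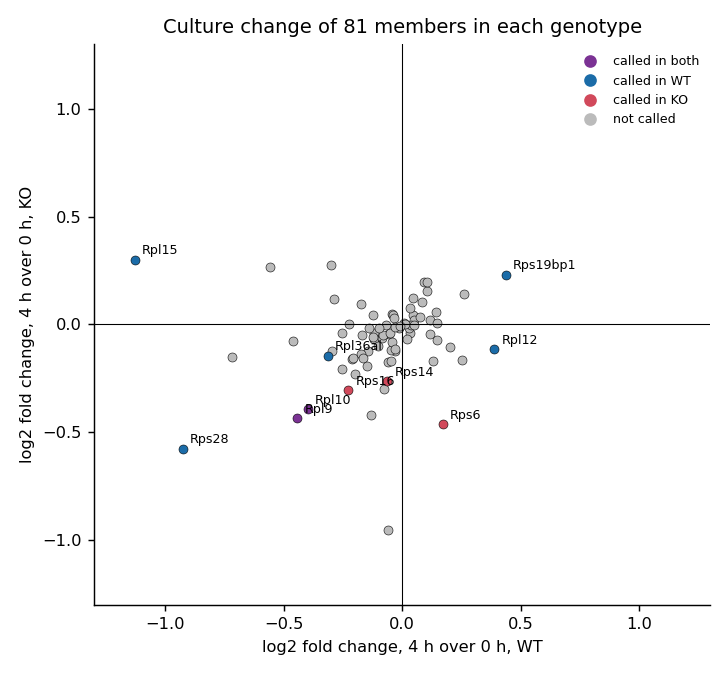
The log2 fold change of 4 h over 0 h in WT (horizontal axis) and in KO (vertical axis) for 81 members, coloured by the comparison in which the gene was called. Most points lie near 0 on both axes, Rpl9 and Rpl10 lie at about -0.4 on both, and Rpl15 (-1.13 in WT, 0.30 in KO) and Rps6 (0.17 in WT, -0.46 in KO) lie off the diagonal.

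The interaction asked whether culture changed a member differently in the 2 genotypes. Of 81 members 2 were called (2.47%), where 6.39% of all genes were, and the median was -0.0086 (-0.0011 over all genes). For Rpl15 the WT change minus the KO change was -1.43 ± 0.25 (adjusted p of 0.00081). Its KO libraries went from 15.8, 18.8 and 15.0 CPM to 15.7, 25.3 and 19.7 CPM, a log2 fold change of 0.30 ± 0.19 that was not called (adjusted p of 0.272). The interaction of Rpl15 was called in all 17 alternatives, with values of -1.58 to -1.23. Nkiras1, on the opposite strand, rose from 24.2 to 26.1 CPM to 33.3 to 34.8 CPM in KO (0.44 ± 0.10, adjusted p of 0.0021), had a log2 fold change of -0.07 ± 0.09 in WT (adjusted p of 0.620), and had an interaction of the same sign (-0.51 ± 0.14, adjusted p of 0.026).

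Rps6 had the opposite interaction, 0.63 ± 0.18 (adjusted p of 0.037). In WT cells its mean was 17.4 ± 1.81 CPM at 0 h and 19.6 ± 0.72 CPM at 4 h, and in KO cells 23.2 ± 1.63 CPM at 0 h and 16.9 ± 1.88 CPM at 4 h (SD, n = 3). The gene lies on chromosome 4 from 86854660 to 86857412 (minus strand), had 15.4% unique windows and overlaps no annotated protein-coding or long noncoding gene. Its interaction lost the call in 8 of 17 alternatives, each of which left out 1 library (adjusted p up to 0.108). With those libraries left out the interaction called Rpl15 alone. Rpl12 had an interaction of 0.50 ± 0.17 that was not called (adjusted p of 0.099).

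**Figure D5:**
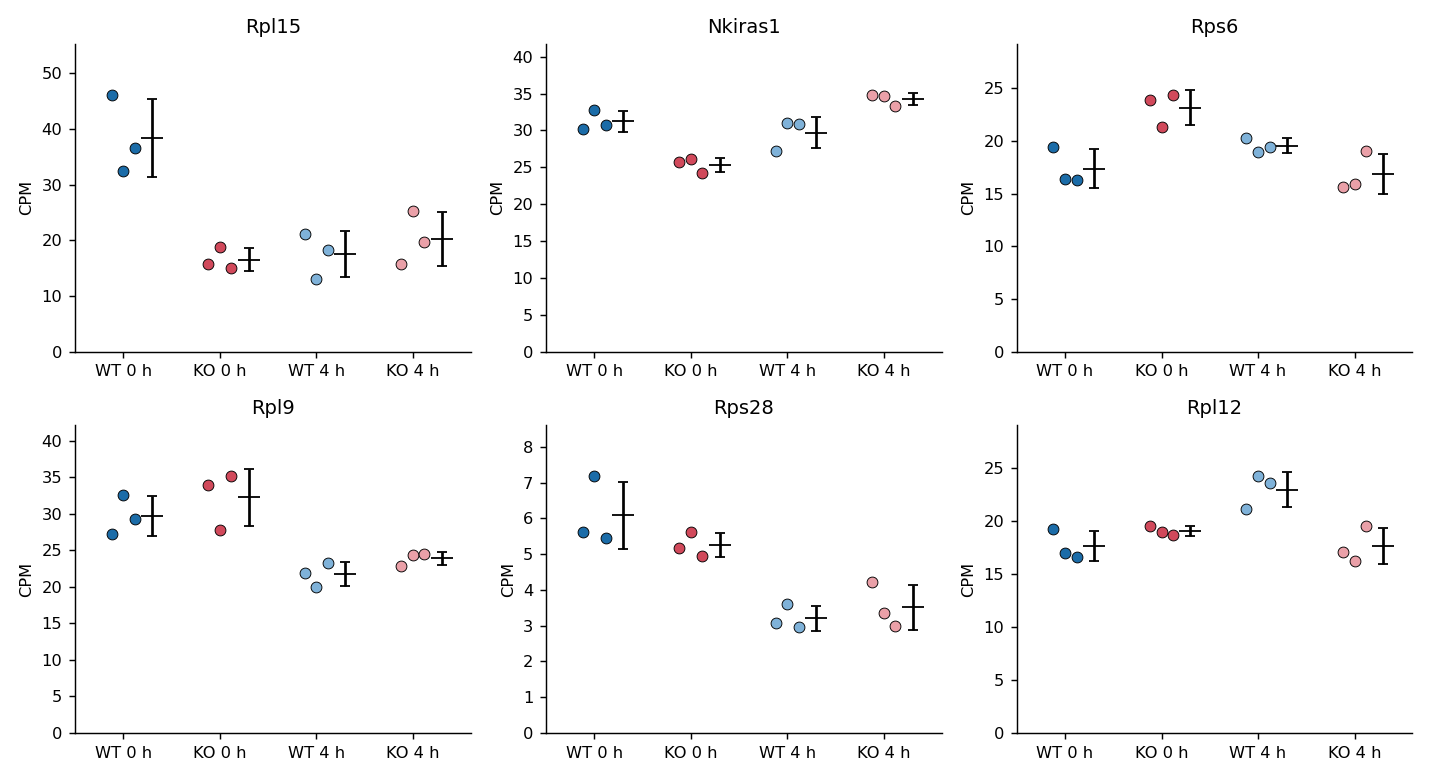
CPM per library (vertical axes from 0) in the 4 groups for Rpl15, Nkiras1 (the gene on the opposite strand), Rps6, Rpl9, Rps28 and Rpl12, with the mean and SD beside the 3 points of each group. Rpl15 is high in WT 0 h alone (32.4 to 46.1 CPM), Rpl9 and Rps28 are lower at 4 h in both genotypes, and Rpl12 is highest in WT 4 h (21.1 to 24.2 CPM).

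Members with roles of their own were then read across the 5 comparisons. The stalk proteins Rplp0, Rplp1 and Rplp2 had 0 calls by edgeR (and 0 at an unadjusted p under 0.05), and their log2 fold changes ran from -0.11 to 0.14. Rplp0, often used as a reference gene, had means of 308.1 ± 5.96 CPM (WT) and 329.0 ± 18.7 CPM (KO) before culture, and of 339.9 ± 51.2 CPM (WT) and 342.7 ± 17.5 CPM (KO) after it (SD, n = 3). Rpl5 and Rpl11 carry 5S ribosomal RNA into the large subunit and, when free, bind the p53 regulator MDM2. They had 0 calls by edgeR (0 at an unadjusted p under 0.05), and their log2 fold changes lay between -0.10 and 0.26, with SEs of up to 0.24. Rpl5 had 6.16% unique windows and group means of 10.97 to 13.7 CPM.

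Among 7 members with known regulatory ties (Rps6, Rpl13a, Rps14, Rps19, Rps27a, Rpsa and Rps3), Rps6 and Rps14 were called in KO culture and Rps6 in the interaction. Rps3, which also joins NF-kB complexes in lymphocytes, had log2 fold changes of -0.07 to 0.01 in the 5 comparisons and 1174 to 1229 CPM as group means. Rps19, the gene most often mutated in Diamond-Blackfan anemia, had log2 fold changes of -0.17 to 0.10. Rpsa, also the laminin receptor, went in WT from 35.3 ± 1.74 CPM to 31.9 ± 0.91 CPM in culture (log2 fold change -0.15 ± 0.10, adjusted p of 0.277).

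Of the 12 genes of paralog pairs, Rpl36al and Rpl10 were called in WT culture and Rpl10 in KO culture. Rpl22, which in lymphocytes takes part in T cell development, had means of 629.7 ± 14.3 CPM before and 580.2 ± 75.8 CPM after culture of WT cells (adjusted p of 0.235). Its partner Rpl22l1 had means of 64.8 ± 4.79 and 56.01 ± 5.0 CPM there (log2 fold change -0.21 ± 0.09, adjusted p of 0.074). In a fit with the replicate number as a block, Rpl22l1 was called (adjusted p of 0.040). Rpl36a did not follow Rpl36al, with a log2 fold change of 0.09 ± 0.18 in WT culture (adjusted p of 0.737), and the difference between the partners was not tested. Rps27 and Rps27l had log2 fold changes of 0.20 ± 0.29 and 0.11 ± 0.11 there, the first with 1.35% unique windows.

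Genes around the ribosome were counted with the same test. Of all genes tested, 0.987% were called at 0 h, 10.9% at 4 h, 33.1% in WT culture, 23.3% in KO culture and 6.39% in the interaction. At an unadjusted p under 0.05, 770 of 11345 genes were higher and 672 lower at 0 h. The counts were 1271 and 1307 of 11123 at 4 h, and 851 and 1161 of 11572 in the interaction. Whether the lists below differ from these shares was not tested. Gnb2l1, which encodes the small subunit scaffold RACK1, was at 987.3 to 1331 CPM, and neither it nor Fau was called in any comparison or had an unadjusted p under 0.05. The 76 mitochondrial ribosomal protein genes had 0 calls at 0 h (8 at an unadjusted p under 0.05). At 4 h 2 were called (2.63%), both higher in WT (Mrpl28, 0.39, and Mrps7, 0.32). WT culture had 11 calls (14.5%, 9 higher, 2 lower) and KO culture 6 (7.89%, 4 higher, 2 lower). The interaction had 0 (3 at an unadjusted p under 0.05). Among the called, Mrps6 was highest in both culture comparisons (0.96 in WT and 0.60 in KO) and Mrpl32 lowest (-0.44 and -0.38).

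Among 27 genes with other TOP mRNAs, 5 were called at 4 h (18.5%), all lower in WT, from Eif3e (-0.26) to Gas5 (-0.37). The interaction had 4 calls (14.8%), all negative, from Eif4a2 (-0.31) to Gas5 (-0.42). Gas5 is a noncoding TOP transcript that hosts small nucleolar RNAs. In WT culture 2 were called higher and 5 lower (25.9% called), from Snhg1 (0.21) to Hnrnpa1 (-0.61). In KO culture 4 were called higher, with Npm1 at 0.36, and 1 lower, Nap1l1 at -0.18 (18.5% called). At 0 h 1 was called (3.70%), Snhg1 (-0.27).

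Of 23 initiation factor and regulator genes, 1 was called at 0 h (4.35%; Eif1ax, 0.50). At 4 h 2 were called (8.70%), Larp1b (0.51) and Eif4ebp2 (0.26). Larp1b is a relative of the TOP-binding protein LARP1, and Eif4ebp2 encodes a repressor of the cap-binding factor. In WT culture 4 were called higher and 2 lower (26.1% called), from Larp1b (0.56) to Eif1 (-0.46), a factor in start codon choice. In KO culture 3 were called higher and 1 lower (17.4% called), from Eif2s2 (0.34) to Eif1 (-0.44). The interaction had 2 calls (8.70%), Eif2b2 (0.43) and Eif1ax (-0.71).

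Among 19 tested genes of the mTORC1 pathway, Ddit4, an inhibitor of mTORC1, fell most in culture, by 2.88 in WT and 2.52 in KO on the log2 scale. The pathway had 0 calls at 0 h (1 at an unadjusted p under 0.05) and 2 at 4 h (10.5%), Lamtor2 (0.44) and Sesn1 (-0.27). In WT culture 3 were called higher and 4 lower (36.8% called), with Mlst8 highest among the called (0.48). In KO culture 2 were called higher and 3 lower (26.3% called), with Sesn1 highest among the called (0.30). The interaction had 0 calls (4 at an unadjusted p under 0.05). Of 18 genes for dedicated chaperones and importers of ribosomal proteins, 5 were called higher and 2 lower in WT culture (38.9% called). They ran from Ipo5 (0.51) to Ipo7 (-0.21), and 1 was called higher in KO culture (5.56%; Ipo5, 0.47). These had 0 calls by edgeR at 0 h, at 4 h and in the interaction (1, 2 and 1 at an unadjusted p under 0.05). Of 11 genes for ribosome turnover and quality control, Nufip1 (0.31) and Zfp598 (0.21) were called in WT culture (18.2%). Zfp598 (0.34) was called in KO culture (9.09%). This list had 0 calls at 0 h, at 4 h and in the interaction (1 in each at an unadjusted p under 0.05).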

How the data were processed

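The study sorted the cells to a stated purity of over 99%, amplified RNA with the Ovation RNA-seq System V2, sequenced single-end reads of 50 bases, mapped these to mm10 (STAR) and tallied them by gene (HTSeq) (tool versions, annotation and strand are not given in the sources used here). Deposited by the authors were unnormalized read counts of whole numbers, in a table for 0 h (13269 genes) and one for 4 h (13142 genes), each holding genes with a row sum of at least 10, with 0 unmapped columns. The members and gene lists were chosen with earlier results of these data known. Named genes are, per comparison, the 6 highest and 6 lowest log2 fold changes among called members, always Gpr174, Rpl15 and the stalk, 5S, regulatory and paralog lists, and the highest and lowest called gene of each other list. Other genes given for closeness to the threshold (Rpl12 at 4 h and in the interaction) or for overlap were chosen after their values were seen.

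Counts were scaled by TMM, filtered with filterByExpr (minimum count 10) and tested with edgeR 4.0.16 (glmQLFit, glmQLFTest) in R 4.3.3, with Benjamini-Hochberg adjustment over all genes tested. Genotype (WT over KO) was fitted on the 6 libraries of a time. Culture (4 h over 0 h) and the interaction (WT change minus KO change) were fitted on all 12 libraries over genes in both tables. Called means an adjusted p under 0.05, and ± is the SE for log2 fold changes and the SD for CPM. Rpl30 (all comparisons) and Rpl34 (4 h) did not pass the filter. Alternatives were DESeq2 1.42.0, other scalings and filters, other sample sets, a replicate block and leaving out each library. The script was tested on simulated counts. Replicates of a group differed beyond sampling noise (chi-square per degree of freedom of 2.0 to 9.88). Same-numbered WT libraries at 0 h and 4 h had deviations correlated at r of 0.175, 0.160 and 0.113 over 9192 genes. Libraries of different numbers were not compared, so these values cannot show whether the numbers pair the libraries. The study gives its replicates as mice, while the labels do not say whether libraries of one number at 0 h and 4 h share a mouse. At these depths the median SE of a member's log2 fold change was 0.075 (genotype, 0 h), 0.102 (genotype, 4 h) and 0.129 (interaction). Reads carried no molecular identifiers.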

Additional observations from a re-analysis of the deposited data

Results flagged for a closer look

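The culture change of 2 members differed between the genotypes by a test of the interaction itself (edgeR, 12 libraries). For Rpl15 the WT change minus the KO change was -1.43 ± 0.25 (log2, SE), with counts of 409, 289 and 410 in WT 0 h, 131, 83 and 174 in WT 4 h, 125, 127 and 109 in KO 0 h and 119, 212 and 145 in KO 4 h. All 3 WT 0 h libraries stood above the 9 others. For Rps6 the difference was 0.63 ± 0.18, and it was no longer called in 8 of 17 alternatives.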

How the results depend on the processing

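Of 321 alternative values of called members and of Gpr174, 42 lost the call and 0 reversed. Gpr174 lost 0, so the 42 were all of members. Fits without a library of the other genotype are among the 321. Of 1789 alternative values of named but uncalled genes, 19 became called and 22 moved by over 1 SE across 0. At 4 h, 3 members differed between genotypes with all 4 groups in the fit. Library totals gave 12 called members and a median of 0.052 in WT culture, with the median of all genes at 0.11, and a summed level of 18397 CPM in WT 0 h. Totals without Rn45s gave sums of 20592 (WT 0 h), 21101 (KO 0 h) and 21514 CPM (KO 4 h). TMM without members and Rn45s gave 21664, 21906 and 21622 CPM. Both leave Rn45s out of the library size, which raises the sums by construction. With 1 library left out, called members numbered 0 to 2 at 4 h (median -0.12 to 0.061) and 5 to 24 in WT culture. They numbered 1 to 6 in KO culture and 1 to 2 in the interaction. The 24 were without WT 4 h replicate 1, where 3353 of 11789 genes were called.

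With the replicate number as a block, which treats libraries of 1 number as paired, 10 members were called in WT culture (2 higher, 8 lower). No call of WT culture was lost. Same-numbered libraries had r of -0.068, 0.142 and 0.147 between the KO times and of -0.158 to 0.056 between the genotypes. The block gave 5 calls in KO culture, without Rpl10 and with a member that was not called in the main fit. It gave 1 call at 0 h, 0 at 4 h and 2 in the interaction. Low counts limit what can be seen for some members, 9 of which had a mean under 50 counts. Rpl30 did not pass the filter of the main fits and was tested only without it. At 0 h, 66 of 81 intervals lay within ±0.5 (81.5%), against 67.0% for all genes.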
